A study of Mus musculus with 23 samples.

Results

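The comparison is of hippocampal microglia from APP/PS1 mice after tamoxifen-induced deletion of Slc11a2 with those of vehicle-treated APP/PS1 mice, in 11 of the 23 libraries of the series. The members were chosen by their labels: the 5 libraries labelled Slc11a2KD APP/PS1 (0004, 0018, 0020, 0021 and 0023) and the Control APP/PS1 libraries 0005, 0007, 0011, 0013, 0016 and 0017. Control APP/PS1 library 0010 was left out, and results that it moves are given with it too. Every mouse was female, of mixed 129S;C57BL/6J background, and carried Slc11a2 flfl and 1 copy of Cx3cr1 Cre-ERT2. The latter is a tamoxifen-activated recombinase expressed from a microglia and macrophage promoter. The APP/PS1 mice were also hemizygous for transgenes of a mouse and human chimera of the amyloid precursor protein (APP) and of a mutant presenilin (PS1). The Slc11a2KD mice were gavaged with tamoxifen when 5 to 6 months old (4 mg per day for 5 days) and Control mice with corn oil, so that tamoxifen and the deletion go together. CD11b+ cells were sorted magnetically from both hippocampi at 15 to 18 months, and each library is poly(A) RNA of 1 sample.

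Slc11a2 encodes DMT1, a proton-coupled transporter that moves ferrous iron and other divalent metals out of endosomes and across the cell membrane. Microglia are the resident macrophages of the brain. Around amyloid plaques they lose part of a homeostatic programme and take up a disease-associated one, in which Trem2, the receptor for lipids and lipoproteins, and Apoe, the lipoprotein that carries lipid between brain cells, take part, together with lysosomal and lipid-handling genes. The study deleted Slc11a2 to ask whether microglial iron import alters this response.

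Libraries are numbered from 1 to 23. The Control libraries lie between 5 and 17, 0004 is the only Slc11a2KD APP/PS1 library among 1 to 4, and the other 4 lie among 18 to 23, so that the number range and the treatment cannot be told apart. The question put to each gene and gene class was therefore whether 0004 goes the same way as libraries 0018, 0020, 0021 and 0023. Depth was 34337716 to 52188165 counts in the Slc11a2KD APP/PS1 libraries and 39227315 to 54872491 in the Control APP/PS1 libraries. Nothing in the labels ties the libraries to litters or preparation days, and p-values measure the spread between these samples.

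The targeted gene was not lower in 4 of the 5 libraries. Slc11a2 (GRCm39 chromosome 15, 100285776 to 100322953, minus strand) stood at 37.8 CPM (counts scaled to the same TMM-normalized library total) in 0004, and at 52.1, 59.2, 75.1 and 58.2 CPM in 0018, 0020, 0021 and 0023. The Control libraries ranged from 40 to 48.2 CPM with a median of 41.5. Library 0004 was thus below every Control library and the other 4 were above every one. The log2 fold change was 0.39 ± 0.14 (SE; edgeR quasi-likelihood adjusted p = 0.205; exact two-sided permutation p = 0.0498, n = 5 and 6). Length correction took the difference of the later libraries from 0.49 to 0.91 and that of 0004 from -0.19 to -0.28. These counts cover all exons of the gene, while the deletion removes a part of it, so that they are a weak check of the deletion. The study checked expression of the deleted exons themselves, with RT-qPCR primers placed there among its measures, which whole-gene counts do not separate. Because the counts used here do not show the deletion, the libraries are called KD-labelled.

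Across the 18759 genes tested, 0 were called higher (0%) and 0 lower (0%) in the KD-labelled libraries at an adjusted p under 0.05 by edgeR, whose smallest adjusted p was 0.205. At an unadjusted p under 0.05, 2035 genes (10.8%) were higher and 1827 (9.74%) lower. DESeq2 called 24 genes higher (0.128%) and 7 lower (0.0373%), and limma voom called 0 higher and 2 lower. Without 0004, edgeR called 1373 genes higher (7.34%) and 1696 lower (9.07%). Of those 1373, 0004 was above the Control mean for 276, above the whole Control range for 49 and below it for 172. Of those 1696, it was below the Control mean for 288, below the range for 33 and above it for 228. The calls of the fit without 0004 therefore lay mostly on the opposite side of the Control mean in 0004.

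The 4 later libraries and 0004 also differed from Control in opposite ways by gene length. In the shortest 3724 genes, with up to 2177 bases of exon, the median log2 difference from Control was 0.24 for the 4 later libraries and -0.12 for 0004. In the longest 3722, from 9131 bases, it was -0.43 and 0.10. Over all genes it was -0.05 and 0.01. The log2 change per doubling of exon length, relative to the mean of the libraries, was 0.10 in 0004, -0.09 to -0.36 in the other 4 and -0.03 to 0.15 in the Control APP/PS1 libraries. Values with each library's length and GC trend removed are called length-corrected and are given below for gene classes and for some single genes; the part of the trend in those results was not otherwise tested.

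**Figure D1:**
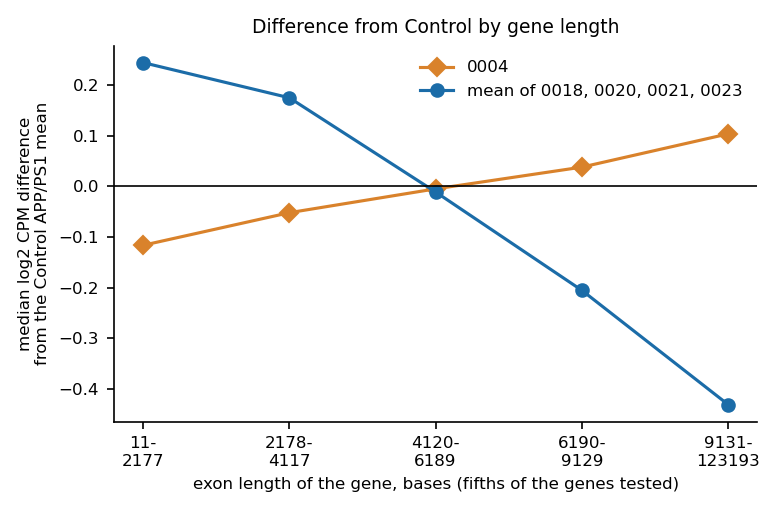
Median log2 CPM difference from the Control APP/PS1 mean (vertical axis) for genes in 5 groups of exon length in bases (horizontal axis), for library 0004 (orange diamonds) and for the mean of the other 4 Slc11a2KD APP/PS1 libraries (blue circles). The lines cross, from 0.24 and -0.12 in the shortest genes to -0.43 and 0.10 in the longest.

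Among the 11 APP/PS1 libraries, choroid plexus transcripts marked the same division. Ttr, the thyroid hormone carrier secreted by choroid plexus epithelium, was at 166, 219, 64.4 and 378 CPM in 0018, 0020, 0021 and 0023 and at 0.23 CPM in 0004, against 0 to 0.588 CPM in the Control libraries. Enpp2, the lysophospholipase that makes lysophosphatidic acid, was at 80.7, 83.5, 16.9 and 77.8 CPM in the same 4 libraries, at 1.67 CPM in 0004 and at 0.915 to 3.65 CPM in Control. Both genes were thus within the Control APP/PS1 range in 0004. In WT mice, Ttr averaged 269 CPM (SD 433) in Control and 154 CPM (SD 200) in Slc11a2KD libraries. Enpp2 averaged 172 CPM (SD 296) and 76.9 CPM (SD 107) there. High levels of these genes were thus not confined to libraries 18 to 23 or to tamoxifen-treated mice. The 20 choroid plexus markers together summed to 96.3 to 516 CPM in the 4 later libraries, to 10.6 CPM in 0004 and to 6.91 to 13.1 CPM in Control, and 13 of the 20 had no count in 0004. Microglial markers summed to 33113 CPM in 0004, to 34660 to 38066 in the other 4 and to 30152 to 34742 in Control. In bulk RNA, a change in the number of cells of a type and a change in RNA per cell cannot be told apart.

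Energy, translation and chromatin classes had some of the largest median differences, and in these 0004 went the other way. Of 77 nuclear-encoded subunits of the respiratory chain and ATP synthase, 70 were higher at an unadjusted p under 0.05, where 10.8% of all genes were, with a median log2 difference of 0.70 in the 4 later libraries against -0.16 in 0004. Over all genes tested, 0004 and the mean of the other 4 were both above the Control mean for 3576 (19.1%) and both below it for 3944 (21%). Of the respiratory chain subunits 1 was above it in both, and 9 were after length correction. The 83 cytosolic ribosomal proteins had medians of 0.65 and -0.25, the 75 mitochondrial ribosomal proteins of 0.53 and -0.14, and the 38 proteasome subunits of 0.40 and -0.11. The 72 histone modifiers had medians of -0.83 in the later libraries and 0.18 in 0004, and the 66 spindle and cytoskeleton regulators of -0.89 and 0.22. Of the 46 gene classes examined, 16 had a median of the same sign in 0004 as in the other 4, and 10 did after length correction. The length-corrected medians kept the later libraries and 0004 apart, at 0.47 and -0.09 for the respiratory chain, 0.34 and -0.17 for cytosolic ribosomal proteins, 0.39 and -0.10 for mitochondrial ribosomal proteins, 0.27 and -0.09 for the proteasome, -0.41 and 0.08 for the histone modifiers and -0.49 and 0.14 for the spindle and cytoskeleton regulators.

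Some members of these classes went the same way in 0004, at shares no higher than over all genes before length correction. On the lower side in both were 15 histone modifiers (20.8%) and 9 spindle and cytoskeleton regulators (13.6%), which became 26 (36.1%) and 15 (22.7%) after length correction, against 22.9% of all genes so corrected. On the higher side in both were 11 mitochondrial ribosomal proteins (14.7%), 5 cytosolic ribosomal proteins (6.02%) and 5 proteasome subunits (13.2%). After length correction these became 16 (21.3%), 6 (7.23%) and 7 (18.4%), against 19.7% of all genes so corrected. Chd3, a chromatin remodeller of the NuRD complex, was at 4.84 CPM in 0004, at 3.89, 2.97, 3.03 and 4.76 CPM in the others, and at 4.69, 6.69 and 10.8 CPM as the lowest, median and highest Control value. Hdac9, a class IIa histone deacetylase, was at 16.6 CPM in 0004 and at 13.7, 14.5, 7.98 and 9.1 CPM in the others, against a Control range of 13.7 to 25.9 with a median of 19.2. Myo1e, an unconventional myosin of the cell cortex, was at 95.1 CPM in 0004 and at 109, 89.7, 43.4 and 34.8 CPM in the others, against 72.8 to 196 CPM in Control with a median of 118. The groups overlapped for all 3 genes, and the difference of the later libraries for Hdac9 was -0.81 before and -0.27 after length correction.

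**Figure D2:**
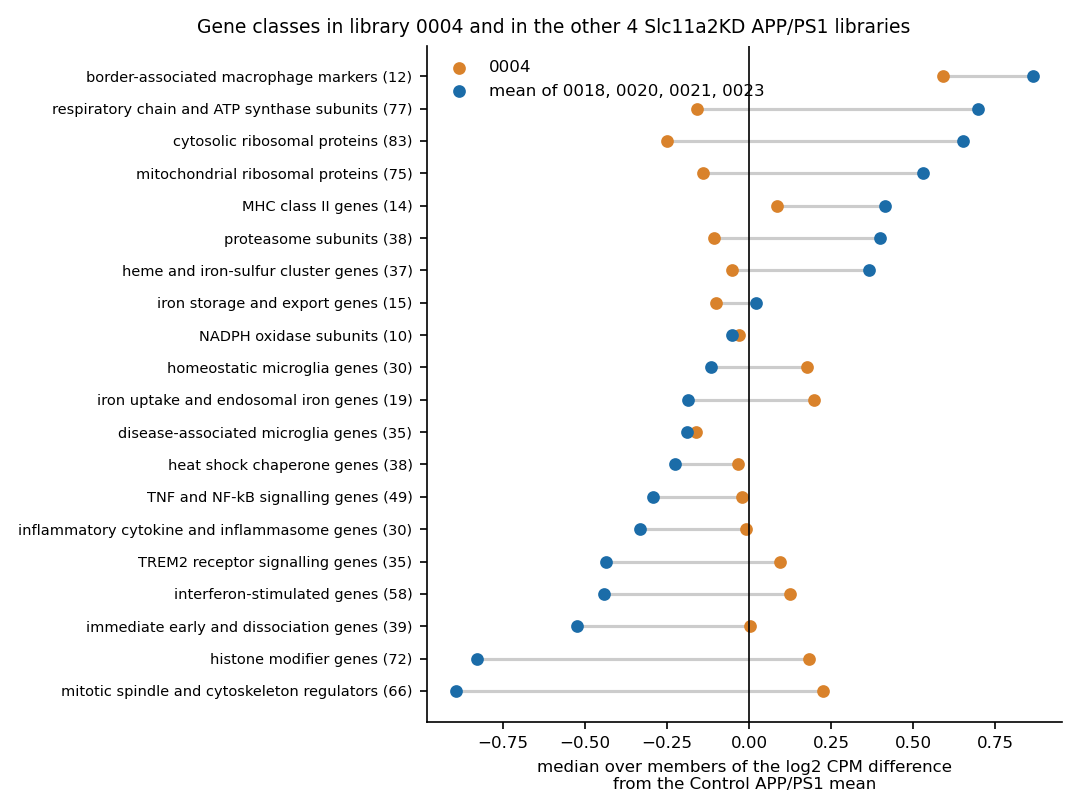
Median over the members of each gene class (number tested in brackets) of the log2 CPM difference from the Control APP/PS1 mean, for 0004 (orange) and for the mean of 0018, 0020, 0021 and 0023 (blue). Respiratory chain and ribosomal classes lie at 0.53 to 0.70 in the 4 libraries and below 0 in 0004, while border-associated macrophage markers are above 0 in both and disease-associated microglia genes below 0 in both.

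Disease-associated microglia genes leaned downward in 0004 and in the other 4 alike. Of the 35 disease-associated genes, 14 (40%, against 21% of all genes) were below the Control mean in both and 2 (5.71%, against 19.1%) above it in both. The median log2 difference was -0.16 in 0004 and -0.19 in the other 4, and -0.14 and -0.18 after length correction. By library the class median was -0.16 in 0004, and -0.12, -0.09, 0.08 and -0.34 in 0018, 0020, 0021 and 0023, against -0.24 to 0.23 in the Control libraries, so that the groups overlapped. At an unadjusted p under 0.05, 6 members were lower and 2 higher, against 9.74% and 10.8% of all genes.

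Apoe (chromosome 7, 19430034 to 19434947, minus strand) was a member of this class that lay below the Control mean in 0004 too. It stood at 893 CPM in 0004 and at 741, 609, 552 and 547 CPM in the other 4, against 608, 1210 and 2914 CPM as the lowest, median and highest Control value. Control library 0005, at 2914 CPM, had the highest level, and 0004 lay between the second and the third of the 6 Control libraries in ascending order. The log2 fold change was -1.12 ± 0.29 (SE; edgeR adjusted p = 0.205; exact permutation p = 0.0433, n = 5 and 6), and DESeq2 called it at an adjusted p of 0.0412. In 0004 alone the log2 difference was -0.50. In WT mice the same contrast gave 0.18 ± 0.29, and the difference between the contrasts, -1.30 ± 0.41, had an adjusted p of 0.544.

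Other disease-associated genes had smaller differences. Hif1a, the oxygen-regulated transcription factor subunit, was at 421 CPM in 0004 and at 396, 390, 313 and 361 CPM in the others, against 359, 488 and 647 CPM as the lowest, median and highest Control value (log2 fold change -0.42 ± 0.13 SE, edgeR adjusted p = 0.205, exact permutation p = 0.026). Its length-corrected log2 differences were -0.29 in 0004 and -0.19 in the others. Lpl, the lipoprotein lipase, was at 189 CPM in 0004 and 125 to 255 CPM in the others, with Control libraries from 129 to 491 CPM, and the difference of the later libraries was -0.40 before and 0.03 after length correction. Ccl6, a macrophage chemokine, lay on the other side at 1003 CPM in 0004 and 946 to 1364 CPM in the others, against a Control median of 699 and a highest Control value of 1300 (log2 fold change 0.47 ± 0.28, edgeR adjusted p = 0.336). The length-corrected difference of the other 4 for Ccl6 was 0.06.

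Trem2 itself was at 2156 CPM in 0004 and 2130 to 2798 CPM in the others, with Control values from 1751 to 2435 CPM (log2 fold change 0.20 ± 0.11, edgeR adjusted p = 0.288). Its log2 difference in 0004 was 0.07. The list of 35 genes of the Trem2 signalling path had medians of -0.44 in the 4 later libraries and 0.10 in 0004, and of -0.06 and 0.10 after length correction. Clec7a, the beta-glucan receptor, was at 516 CPM in 0004 and 374 to 568 CPM in the others against a Control range of 486 to 734 CPM (log2 fold change -0.29 ± 0.30, adjusted p = 0.648). These values do not separate the groups.

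Csf1 and Ctsb, further members of that class, were lower in the 4 later libraries and not in 0004. Csf1, the ligand of the receptor on which microglia depend, was at 201 CPM in 0004 beside a Control median of 207, and at 128, 119, 94.3 and 78 CPM in the others. Ctsb, a lysosomal cysteine protease, was at 4671 CPM in 0004 beside a Control median of 4548, and at 3409, 3227, 2223 and 2260 CPM in the others. The same held for Bin2, Inpp5d, Erap1 and Lag3: the 4 later libraries differed by log2 -1.42, -1.0, -0.87 and -1.51, and 0004 by 0.12, 0.31, 0.27 and 0.52. Inpp5d, the lipid phosphatase that limits signalling through immune receptors, was at 582 CPM in 0004, above the highest Control value of 498, and at 172 to 337 CPM in the others.

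Cybb, the catalytic subunit of the phagocyte NADPH oxidase that makes superoxide, was lower in 0004 than in the mean of the other 4. It was at 51.9 CPM in 0004 and at 87.9, 88.2, 51.4 and 52.9 CPM in 0018, 0020, 0021 and 0023. The Control libraries lay at 79.9, 116 and 196 CPM as the lowest, median and highest, so that 0004, 0021 and 0023 were below every Control library and 0018 and 0020 were not. The log2 fold change was -0.97 ± 0.34 (SE; edgeR adjusted p = 0.205; exact permutation p = 0.0433), with -1.21 in 0004 and -0.83 in the others, and -1.21 and -0.79 after length correction. The other NADPH oxidase genes did not follow: the class median was -0.03 in 0004 and -0.05 in the others, and 3 of 10 members were lower in both. Hvcn1, the proton channel that offsets the oxidase's charge, was at 286 CPM in 0004 beside a Control median of 282 and at 172 to 267 CPM in the others.

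Ly9, a SLAM-family receptor, was at 55.8 CPM in 0004 and at 31.4, 32.5, 31.6 and 25.7 CPM in the others, against Control values from 52.6 to 86.3 CPM with a median of 64. The 4 later libraries were below every Control library and 0004 was just inside the range. For Ly9 the log2 fold change was -0.91 ± 0.21 (edgeR adjusted p = 0.205, exact permutation p = 0.00433), and DESeq2 gave an adjusted p of 0.0244. Cp, the ferroxidase ceruloplasmin that loads exported iron onto transferrin, was at 5.59 CPM in 0004 and at 6.08, 3.32, 1.41 and 3.79 CPM in the others, with Control values from 5.1 to 15.8 CPM and a median of 8.39. Its log2 fold change was -1.19 ± 0.37 (edgeR adjusted p = 0.205, exact permutation p = 0.013), with -0.61 in 0004. Over the 33 genes listed from the study, these permutation p-values are not adjusted. That list lacks Nfe2l2, which the study reports as lower in these cells, and genes it names for other comparisons. It includes Ccl6, Cd163 and Sod2, which the study's text does not name.

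The iron genes the study discusses, other than Cp, had log2 fold changes of 0.22 or less in size or went opposite ways in 0004 and the others. Slc40a1, ferroportin, the only known cellular iron exporter, was at 138 CPM in 0004 and at 141, 133, 134 and 148 CPM in the others, above the Control median of 120 and within or just past the Control range of 93.8 to 145 CPM (log2 fold change 0.22 ± 0.10, edgeR adjusted p = 0.239, exact permutation p = 0.0346). The ferritin chains Fth1 and Ftl1 had log2 fold changes of -0.04 ± 0.17 and -0.03 ± 0.10, and Tfrc, the transferrin receptor, of -0.12 ± 0.14. Length correction widened some of these differences in the later libraries, from 0.23 to 0.53 for Slc40a1 and from -0.0017 to -0.40 for Ftl1, while 0004 stood at 0.16 and -0.04. The 15 iron storage and export genes had medians of -0.10 in 0004 and 0.02 in the others, the 19 iron uptake genes of 0.20 and -0.19, and the 37 heme and iron-sulfur cluster genes of -0.05 and 0.37. After length correction these were -0.06 and 0.06, 0.21 and -0.04, and -0.10 and 0.36. In these 3 lists, 4 (26.7%), 1 (5.26%) and 4 (10.8%) members were lower in both, against 21% of all genes, and 3 (20%), 4 (21.1%) and 5 (13.5%) higher in both, against 19.1%. Cd163, the haptoglobin-haemoglobin receptor, was at 26.8 CPM in 0004 and 11.4 to 14.3 CPM in the others, against 11.6 to 26.4 CPM in Control. Gpx4, the glutathione peroxidase that guards against lipid peroxidation, was at 276 CPM in 0004 and 418 to 746 CPM in the others, against 244 to 363 CPM in Control. Sod2, the mitochondrial superoxide dismutase, had a log2 fold change of 0.06 ± 0.13, and its difference in the later libraries was 0.10 before and 0.57 after length correction.

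In the heme list, Blvrb, the biliverdin reductase that also reduces flavins, had groups that did not overlap. It was at 53.2 CPM in 0004 and at 53.7, 58.7, 77.7 and 69.6 CPM in the others, against Control values of 32.7, 42 and 47.3 CPM as the lowest, median and highest. Length correction left log2 differences of 0.44 in 0004 and 0.47 in the others. In WT mice its log2 fold change was 0.05 ± 0.20.

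**Figure D3:**
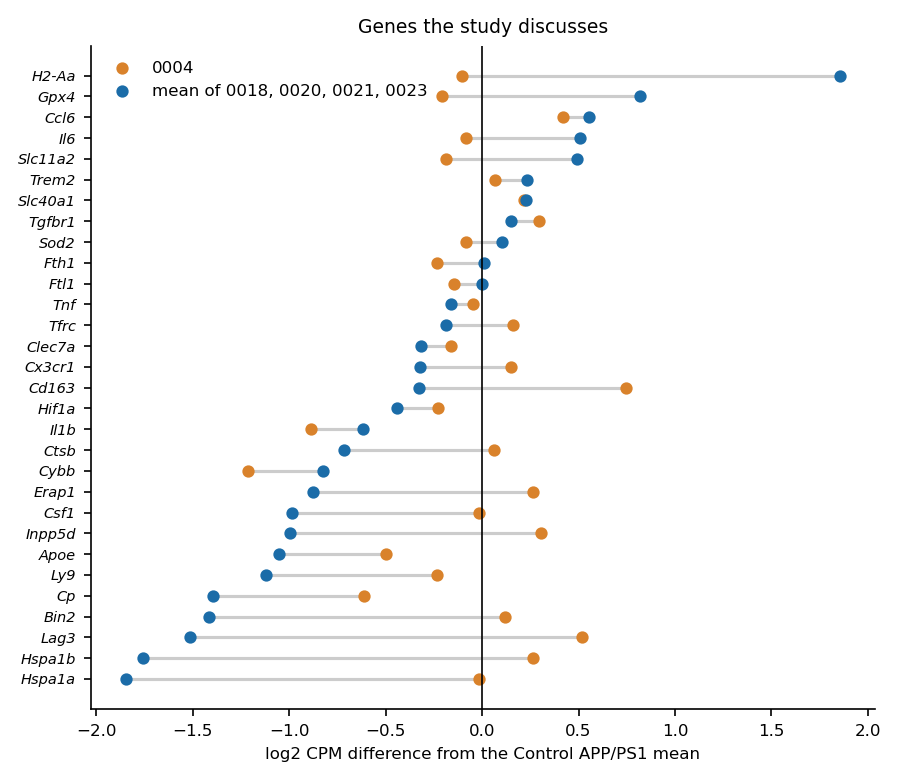
Log2 CPM difference from the Control APP/PS1 mean for the genes listed from the study, without Ttr, Enpp2 and Igkc, in 0004 (orange) and in the mean of 0018, 0020, 0021 and 0023 (blue). Nfe2l2, which the study also discusses, is not in the list. Cybb, Il1b, Cp, Apoe, Hif1a and Ly9 are below 0 in both, Slc40a1, Tgfbr1, Ccl6 and Trem2 above 0 in both, and Lag3, Inpp5d, Erap1, Gpx4 and Slc11a2 lie on opposite sides.

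Homeostatic microglia genes had a median above Control in 0004 and below it in the other 4, at 0.18 and -0.12, and at 0.20 and -0.26 after length correction. Of 30, 10 (33.3%, against 19.1% of all genes) were above the Control mean in both and 3 (10%, against 21%) below it in both, and 8 and 1 were after length correction. At an unadjusted p under 0.05, 5 were higher and 5 lower. Tgfbr1, the receptor kinase for TGF-beta, on which microglial identity depends, was at 3695 CPM in 0004 and at 3371, 3688, 3086 and 3265 CPM in the others, against 2755, 2988 and 3518 CPM as the lowest, median and highest Control value (log2 fold change 0.18 ± 0.09, edgeR adjusted p = 0.246, exact permutation p = 0.0411). Crybb1, a crystallin gene expressed by homeostatic microglia, was at 216 CPM in 0004 and at 186, 151, 390 and 237 CPM in the others, against a Control median of 157 and a highest value of 208. Ltc4s, the leukotriene C4 synthase, was at 171 CPM in 0004 and 173 to 194 CPM in the others, against 101 to 210 CPM. Cx3cr1, the fractalkine receptor, had 2152 CPM in 0004 and 1178 to 1809 CPM in the others beside a Control median of 1936, and 1 of its alleles carries the Cre insertion in every mouse.

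In 4 of the stress and signalling lists, the medians were lower than Control in the 4 later libraries and close to 0 in 0004, while a larger share of members than of all genes was lower in both. Other such lists did not do so: the shares lower in both were 10% of unfolded protein response genes, 19.1% of Wnt and 20% of toll-like receptor genes. Of 38 heat shock chaperones and their regulators, 15 (39.5%) were below the Control mean in both and 3 above it in both, with medians of -0.04 in 0004 and -0.23 in the others. Of 49 genes of TNF and NF-kB signalling, 19 (38.8%) were lower in both and 3 higher in both, with medians of -0.02 and -0.29. Of 39 immediate early and dissociation-responsive genes, 17 (43.6%) were lower in both and 3 higher in both, with medians of 0.00 and -0.53. Of 30 inflammatory cytokine and inflammasome genes, 11 (36.7%) were lower in both and 6 higher in both, with medians of -0.01 and -0.33. These shares of 36.7 to 43.6% stand beside 21% of all genes. After length correction the medians of the later libraries were -0.14, -0.15, -0.56 and -0.30, and 12, 20, 14 and 11 members (31.6 to 40.8%) were lower in both, against 22.9% of all genes after the same correction. By library the immediate early median was -0.74, -0.86, 0.17 and -0.26 in 0018, 0020, 0021 and 0023, against -0.59 to 0.67 in the Control libraries. Libraries 0004, 0021 and 0023 thus lay inside the Control range. The TNF and NF-kB median was -0.02 in 0004 and -0.15, -0.39, -0.11 and -0.15 in the others. Its Control range was -0.16 to 0.21, so that only 0020 lay outside. The cytokine medians of 0004 and 0021 and the heat shock median of 0004 also lay inside their Control ranges. At an unadjusted p under 0.05, 12, 10, 4 and 5 members of the 4 lists were lower and 4, 2, 0 and 2 higher, against 9.74% of all genes lower and 10.8% higher. For the immediate early genes that is about the share over all genes. Immediate early genes respond to tissue dissociation as well, and the count of 17 moved to 8 without Control library 0017 and to 26 without Control library 0007. With Control library 0010 kept, 9 immediate early and 11 TNF and NF-kB genes were lower in both.

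Hsph1, the large HSP110 chaperone, was the heat shock gene whose groups did not overlap. It was at 13.7 CPM in 0004 and at 13.8, 8.64, 4.49 and 9.26 CPM in the others, against Control values of 15.5, 18.2 and 27.1 CPM as the lowest, median and highest. Bag3, a co-chaperone of HSP70 in aggregate clearance, was at 18.3 CPM in 0004 and at 16.9, 19.3, 8.44 and 7.39 CPM in the others, against 16.8 to 43.5 CPM in Control. In WT mice the log2 fold changes were 0.30 ± 0.30 for Hsph1 and 0.40 ± 0.31 for Bag3. Hspa1a and Hspa1b, the near-identical inducible HSP70 genes whose reads can be shared, were at 40.3 and 25.9 CPM in 0004, within Control ranges of 14.2 to 131 and 6.37 to 64.5 CPM, and at 7.44 to 24.6 and 4.24 to 10.1 CPM in the others. Dnajb4 was at 32.7 CPM in 0004 against a Control median of 43.3, and Dnaja1 at 77.4 against 91.4 CPM; both are HSP40 co-chaperones, and after length correction the other 4 were 0.11 and 0.12 above Control for them on the log2 scale.

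The promoters of Hsph1 and Bag3, a pair of heat shock genes lower than the Control mean in all 5 KD-labelled libraries, are shown because heat shock factor binds inverted GAA units in such promoters. Both sequences are from RefSeq on GRCm38.p6, an earlier build than that of the counts, and run from 250 bases before the start of the transcript to 50 after it. Capitals mark GAANNTTC, a pair of facing GAA units that reads the same on both strands.
Hsph1 (chr5:149636287-149636586, minus strand): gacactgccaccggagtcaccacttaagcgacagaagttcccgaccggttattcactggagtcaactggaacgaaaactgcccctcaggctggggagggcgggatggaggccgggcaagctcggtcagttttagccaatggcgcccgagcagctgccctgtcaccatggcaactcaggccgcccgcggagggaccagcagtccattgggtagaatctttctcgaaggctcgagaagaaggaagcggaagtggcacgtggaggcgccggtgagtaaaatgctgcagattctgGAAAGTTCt
Bag3 (chr7:128523333-128523632, plus strand): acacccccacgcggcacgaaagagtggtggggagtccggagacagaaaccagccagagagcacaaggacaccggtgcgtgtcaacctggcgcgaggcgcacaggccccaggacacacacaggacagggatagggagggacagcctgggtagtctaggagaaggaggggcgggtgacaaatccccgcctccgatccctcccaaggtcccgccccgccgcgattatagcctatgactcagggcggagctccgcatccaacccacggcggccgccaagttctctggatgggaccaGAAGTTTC
Hsph1 has 2 promoters listed, of which 1 is shown. Hsph1 has 1 match, 41 bases past the listed start, and Bag3 has 1 match, 42 bases past it. Of all 32851 promoters in the table, 2582 (7.86%) hold the motif, and of the 41 promoters listed for 31 of the 38 heat shock genes, 15 (36.6%) do. A match describes the letters and not a bound site.

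Of the NF-kB genes, Tnfaip2, a TNF-induced gene, had nearly equal log2 differences in 0004 and the others, both -0.45. It was at 19.3 CPM in 0004 and at 19, 18.9, 18.3 and 21.1 CPM in the others, against 14.9, 26.3 and 47.9 CPM as the lowest, median and highest Control value. The KD-labelled libraries were closely grouped inside a wide Control range. Rel, the c-Rel subunit, was at 44 CPM in 0004 and 14.9 to 52.5 CPM in the others against 29.5 to 145 CPM. Ptgs2, cyclooxygenase-2, was at 34 CPM in 0004 against a Control median of 46.3, and Birc3, an inhibitor of apoptosis induced by NF-kB, at 33.1 against 41.2 CPM. Among cytokines, Il1b was at 175 CPM in 0004 and at 53.7, 106, 684 and 514 CPM in the others, with Control from 121 to 687 CPM, and Il1a at 453 CPM in 0004 and 181 to 566 CPM in the others, with Control from 248 to 1049 CPM. Tnf and Il6 had log2 fold changes of -0.17 ± 0.34 and 0.42 ± 0.38, and length correction moved the difference of the later libraries from -0.16 to -0.62 for Tnf and from 0.51 to 0.13 for Il6. The immediate early genes Nr4a3, Gem, Klf6 and Atf3 had log2 differences of -0.72, -0.71, -0.35 and -0.36 in 0004 and of -1.26, -0.56, -0.60 and -0.80 in the others, with wide Control ranges, such as 245 to 1526 CPM for Atf3.

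Markers of border-associated macrophages had medians above 0 in both. Border-associated macrophages are the perivascular and meningeal macrophages that share CD11b with microglia. Of 12 markers, 5 (41.7%, against 19.1% of all genes) were above the Control mean in both and 0 below it in both. The other markers, Cd163 among them, went opposite ways in 0004 and the later libraries. The medians were 0.59 in 0004 and 0.87 in the others, and 0.60 and 0.33 after length correction. By library, Control 0013 had a median of 0.68, above 0004 at 0.59 and 0018 at 0.20. Over the other marker lists the share higher in both ran from 0 to 50%, and was 42.9% for neuron and oligodendrocyte markers. Pf4, a platelet and macrophage chemokine, was at 17.7 CPM in 0004 and at 19.2, 35.3, 43.1 and 36.5 CPM in the others, against 8.63, 10 and 22.9 CPM as the lowest, median and highest Control value. Clec10a, a galactose-type lectin, was at 17.2 CPM in 0004 and at 10.7, 21.4, 21.6 and 36.4 CPM in the others, against 7.06 to 18.5 CPM. Folr2 and Cbr2 were at 13.9 and 21.8 CPM in 0004, at 10.1 to 26.8 and 22.1 to 41.9 CPM in the others, and at medians of 7.39 and 16 CPM in Control. For each of these 4 genes at least 1 Control library, among them 0013 or 0017, reached into the range of the KD-labelled libraries. DESeq2 called Pf4 (adjusted p = 0.0244) and Clec10a (adjusted p = 0.0412), and edgeR neither (adjusted p = 0.205 for both). The summed level of the 12 markers was 463 CPM in 0004, 263 to 403 in the others and 208 to 446 in Control. With Control library 0010 kept, the median over the 5 KD-labelled libraries was 0.40 in place of 0.75.

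The 14 MHC class II genes had 6 members (42.9%, against 19.1% of all genes) higher in both and 0 lower in both, with medians of 0.09 in 0004 and 0.42 in the others. After length correction the medians were 0.17 and 0.09. Their summed level went the other way in the later libraries, at 3050 to 5102 CPM against 4803 to 5739 in Control, and was 5880 CPM in 0004. With Control library 0010 kept, 3 members were higher in both. H2-Aa, a chain of the class II molecule itself, was not among them: it was at 60 CPM in 0004, at its Control median of 60.2, and at 119, 245, 167 and 609 CPM in the others. Cd74, the invariant chain, was at 73.3 CPM in 0004 and 44.8 to 189 CPM in the others against 44.7 to 115 CPM, and H2-DMa, which loads peptide, at 199 CPM in 0004 and 176 to 239 CPM in the others against 118 to 219 CPM. Igkc, the immunoglobulin kappa constant region of B lineage cells, was at 144 CPM in library 0023 alone and at most at 2.13 CPM in any of the other 10.

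Single genes give the strictest form of agreement. All 5 KD-labelled libraries lay above all 6 Control libraries for 86 genes (0.458%) and below all of them for 68 (0.362%). Of these, 55 and 39 had a mean of at least 5 CPM. With length-corrected values, 34 of the 86 and 40 of the 68 still had groups that did not overlap. With Control library 0010 kept, 23 and 13 genes met the rule. DESeq2 called 8 of the 86 higher and 5 of the 68 lower. Because these genes were chosen for not overlapping, their values are a description and carry no separate test.

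**Figure D4:**
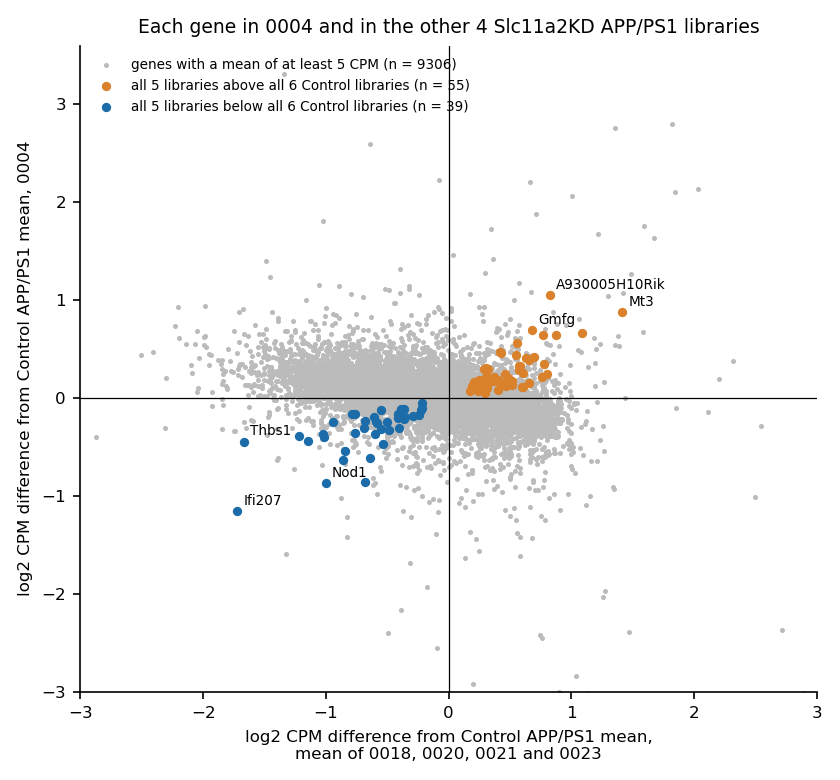
Log2 CPM difference from the Control APP/PS1 mean for each of 9306 genes with a mean of at least 5 CPM, in the mean of 0018, 0020, 0021 and 0023 (horizontal) and in 0004 (vertical); 21 genes lie beyond -3 or 3 on an axis. Coloured points are the 55 genes with all 5 libraries above, and the 39 with all 5 below, the Control libraries, and most grey points run from upper left to lower right.

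The 12 genes that led on the higher side were ranked by the smaller of the differences in 0004 and in the others, and Mt3 came first. Mt3 (chromosome 8, 94879220 to 94881088, plus strand) encodes metallothionein 3, a brain metallothionein that binds zinc and copper. It was at 5.78 CPM in 0004 and at 6.73, 7.68, 10.6 and 9.06 CPM in the others, against 1.98, 3.19 and 5.29 CPM as the lowest, median and highest Control value. Its log2 fold change was 1.27 ± 0.46 (edgeR adjusted p = 0.205), and -0.14 ± 0.46 in WT mice. At this low level 0004 and the highest Control library were close. Mt3 is also expressed by astrocytes, and the 12 astrocyte markers had a median log2 difference of 1.02 in 0004 and -0.33 in the others.

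Gmfg, a glia maturation factor that remodels branched actin in immune cells, was the more abundant leading gene. It was at 151 CPM in 0004 and at 131, 150, 188 and 134 CPM in the others, against 68.8, 104 and 110 CPM as the lowest, median and highest Control value. The lowest KD-labelled library was thus well above the highest Control library. Its log2 fold change was 0.67 ± 0.23 in APP/PS1 and -0.12 ± 0.23 in WT mice, and after length correction 0004 and the others stood 0.72 and 0.58 above Control.

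Pnp, the purine nucleoside phosphorylase that cleaves inosine and guanosine, was at 99.7 CPM in 0004 and at 117, 98.9, 112 and 104 CPM in the others, against Control values of 55.5, 77.7 and 87.4 CPM. Its 5 values had a standard deviation of 7.67 around a mean of 106 CPM (n = 5), against 12.4 around 74.4 CPM in Control (n = 6). The log2 fold change was 0.51 ± 0.12 (edgeR adjusted p = 0.205; DESeq2 adjusted p = 0.0244), and 0.05 ± 0.12 in WT mice. The list of purine receptor and nucleotidase genes of which it is part had 6 of 21 members (28.6%, against 19.1% of all genes) higher in both and 3 (14.3%, against 21%) lower in both.

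Glycosyltransferases and an RNA methyltransferase followed. B3galnt1, which makes globoside, was at 112 CPM in 0004 and at 97.8 to 119 CPM in the others against 63.9 to 97.3 CPM in Control. B3gnt8, which extends polylactosamine chains, was at 5.7 CPM in 0004 and 5.23 to 8.9 CPM in the others against 2.47 to 5.05 CPM. Trmt10a, the tRNA guanosine-9 methyltransferase, was at 11 CPM in 0004 and 11.4 to 12.5 CPM in the others against 5.8 to 8.4 CPM. Tmem204, a small membrane protein of cell junctions, was at 17.1 CPM in 0004 and 17.2 to 24 CPM in the others against 9.51 to 15.9 CPM. The zinc finger genes Zfp383 and Zfp213, the ciliary transport gene Ift70b and the non-coding genes A930005H10Rik and Gm26542 completed the 12, with log2 fold changes of 0.56, 0.43, 0.58, 0.83 and 1.03.

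On the lower side, Ifi207 came first by the same ranking. Ifi207, a PYHIN-family interferon-inducible gene that sits in a cluster of close relatives, was at 4.19 CPM in 0004 and at 4.79, 4.36, 2.72 and 1.09 CPM in the others, against 6.8, 10.2 and 12.3 CPM as the lowest, median and highest Control value. Its log2 fold change was -1.48 ± 0.45 (edgeR adjusted p = 0.205), and -0.59 ± 0.44 in WT mice. Its neighbour Ifi204 was at 12.6 CPM in 0004 and 3.41 to 14.4 CPM in the others against 10.9 to 24.6 CPM. The 58 interferon-stimulated genes as a list did not follow, with medians of 0.13 in 0004 and -0.44 in the others, and Ifi44 was at 85.7 CPM in 0004 beside a Control median of 89.9.

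Nod1, the cytosolic sensor of bacterial peptidoglycan, was at 8.39 CPM in 0004 and at 6.33, 7.33, 7 and 10.6 CPM in the others, against 10.7, 14.9 and 24.3 CPM as the lowest, median and highest Control value. Library 0023 and the lowest Control library were nearly equal. The log2 fold change was -1.0 ± 0.23 (edgeR adjusted p = 0.205; DESeq2 adjusted p = 0.0268), with -0.87 in 0004, and -0.21 ± 0.23 in WT mice. Cd180, a relative of the toll-like receptors that dampens their signal, was at 184 CPM in 0004 and 79.9 to 191 CPM in the others against 183 to 267 CPM, and so overlapped.

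Mmp14 and Thbs1 act at the cell surface and in the matrix. Mmp14, the membrane-bound matrix metalloproteinase, was at 18.2 CPM in 0004 and at 19.8, 17.5, 14.6 and 11.4 CPM in the others, against 21.6, 25.7 and 39.8 CPM in Control. Thbs1, thrombospondin 1, a matrix glycoprotein that activates TGF-beta and binds CD36 and CD47, was at 16.6 CPM in 0004 and at 9.16, 8.91, 4.82 and 6.33 CPM in the others, against 17.4, 22.7 and 28.6 CPM. In 0004 Thbs1 was only just below the lowest Control library, and its log2 fold change of -1.32 ± 0.28 rested more on the other 4 (-1.67 against -0.44). Adamts1, a secreted protease that cleaves proteoglycans, was at 226 CPM in 0004, within the Control range of 161 to 434, and at 65.8 to 109 CPM in the others. Rftn1, raftlin, a lipid raft protein needed for receptor uptake, was at 44.9 CPM in 0004 and at 48.6, 46.1, 34.1 and 49.8 CPM in the others, against 51, 65.4 and 91.6 CPM.

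The remaining leading genes on the lower side were of several kinds. Eif3j1, a subunit of translation initiation factor 3, was at 37 CPM in 0004 and 31.1 to 40.8 CPM in the others against 46.1 to 57.3 CPM (log2 fold change -0.52 ± 0.11, edgeR adjusted p = 0.205, DESeq2 adjusted p = 0.0127), and at 0.18 ± 0.11 in WT mice. H2-T24, a non-classical MHC class I gene with close relatives nearby, was at 16.9 CPM in 0004 and 6.69 to 11.7 CPM in the others against 17.1 to 32.6 CPM. Ric3, a chaperone of nicotinic receptors, was at 10.1 CPM in 0004 and 5.08 to 8.88 CPM in the others against 12 to 15.1 CPM. Satb1, a chromatin organiser, Tcf19, a PHD-finger protein, and Ell2, an elongation factor, had log2 fold changes of -0.85, -0.72 and -0.79. Satb1 in 0004, at 4.47 CPM, all but equalled the lowest Control library, at 4.48 CPM, and the difference of the later libraries was -0.84 before and -0.17 after length correction.

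**Figure D5:**
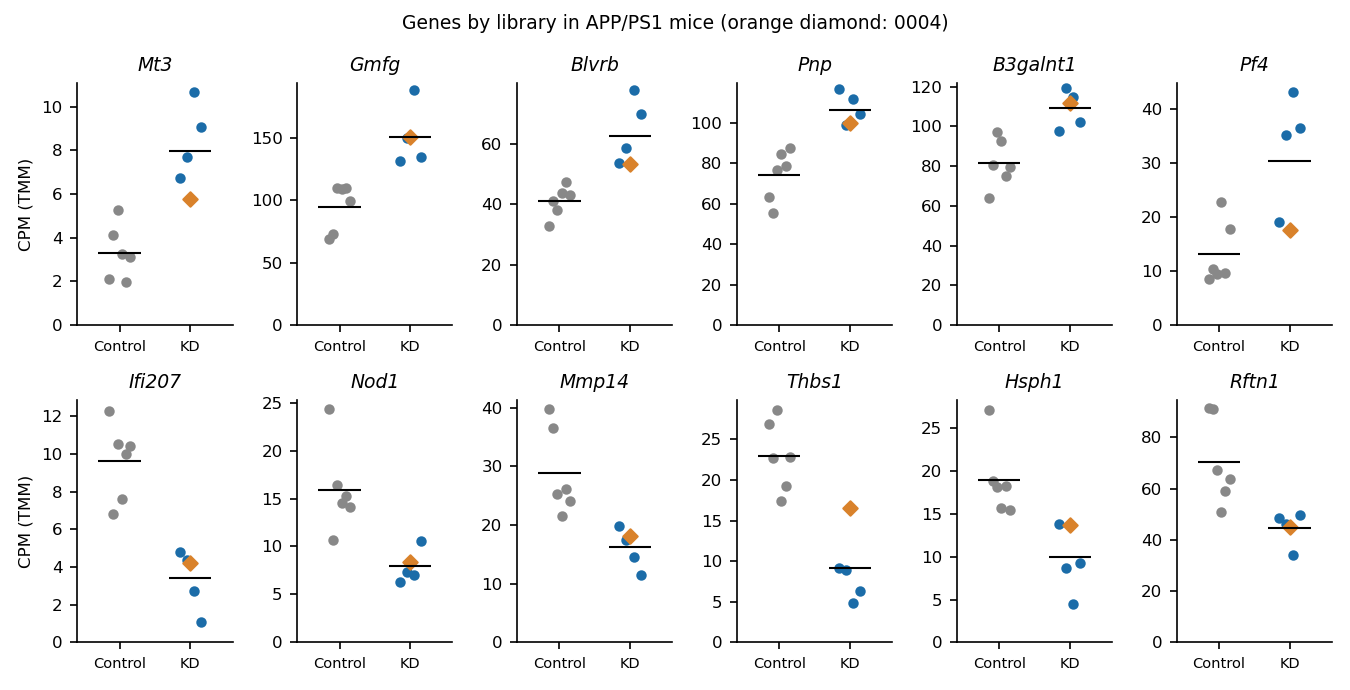
TMM-normalized CPM (vertical axes, from 0) of 12 genes in the 6 Control APP/PS1 libraries (grey), in 0018, 0020, 0021 and 0023 (blue, KD) and in 0004 (orange diamond), with lines at the group means. In every panel except that of Pf4 the KD points lie wholly above (upper row) or wholly below (lower row) the Control points.

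For contrast, the largest calls of the fit without 0004 that left 0004 inside the Control range were of other genes. On the lower side these were Gvin-ps7, Spen, Myh10, Gon4l and Apc, long transcripts for the most part. Spen, a transcriptional repressor, was at 10.7 CPM in 0004 and at 3.59, 2.45, 2.03 and 0 CPM in the others, against 6.12 to 12.4 CPM. Myh10, non-muscle myosin IIB, was at 16.1 CPM in 0004 and 1.23 to 4.81 CPM in the others, against 7.97 to 18.8 CPM. On the higher side, besides Ttr, Enpp2 and Igkc, the rule gave Fam241b, at 2.59 CPM in 0004 and 3.2 to 21.1 CPM in the others against 0.895 to 3.03 CPM, and Igkv3-2, at 120 CPM in 0023 and at 0 counts in the other KD-labelled libraries.

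The genes with agreeing values in APP/PS1 mice were next read in WT mice, where 3 of the 5 Slc11a2KD libraries are among 1 to 4. Of the 86 genes on the higher side, 45 had a positive log2 fold change in WT mice, and of the 68 on the lower side 29 a negative one. In a fit that set the Slc11a2KD libraries 1 to 4 of both genotypes against Control with genotype as a covariate, 0 of the 86 were higher and 1 of the 68 was lower at an unadjusted p under 0.05, and edgeR called 0 genes in all (1723 at an unadjusted p under 0.05; smallest adjusted p = 0.191). Of the 94 genes named, 56 had the opposite sign there, among them Apoe (log2 fold change 0.055), Gmfg (-0.14), Mt3 (-0.37), Pf4 (-0.21) and Hsph1 (0.41). The difference between the contrasts in APP/PS1 and WT mice passed an adjusted p of 0.05 for 0 genes by edgeR (1703 at an unadjusted p under 0.05) and for 24 by DESeq2.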

How the data were processed

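The authors trimmed the paired reads with Trim Galore 0.6.7, aligned them to mm39 with STAR and took its read counts per gene; the deposited table holds these raw counts for 23 libraries, and it was the table used. A table the authors normalized with DESeq2 (1.36.0 in their processing notes) was not used here. Libraries were grouped by the labels, and Control APP/PS1 library 0010 was left out, following the study's methods. A gene was tested if 3 or more of the 22 libraries of the 4 groups had 5 counts or more, in R 4.3.3 with edgeR 4.0.16 (TMM normalization, quasi-likelihood test, Benjamini-Hochberg adjustment over 18759 genes, threshold 0.05). DESeq2 1.42.0 and limma 3.58.1 were alternatives, as were other filters, normalization and sample sets, and each library left out in turn. Log2 differences of single libraries and list medians used log2 CPM with a prior count of 2. Length-corrected values had each library's trend with exon length and GC content (splines of 5 degrees of freedom) removed. Genes listed from the study were tested by exact two-sided permutation over the 462 splits of 11 libraries, whose smallest p is 0.00216. Positions are on GRCm39, the build of the counts. Scripts were tested on simulated data.

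The genes named were first the 33 listed from the study, a list without Nfe2l2, which the study also discusses. In each direction 12 were added with groups that did not overlap and a mean of at least 5 CPM. These had the largest value of the smaller of the differences in 0004 and the other 4. Up to 4 members per described class were added by the same value. For contrast, 5 were added in each direction (called without 0004, with 0004 inside the Control range). Groups, gene lists and tests were chosen with earlier results of these data known. The lists of markers and classes are from general knowledge.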

Additional observations from a re-analysis of the deposited data

Results flagged for a closer look

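The 228 groups of values were those of the 94 named genes and of the mean log2 CPM over members of the gene classes described. Of these, 11 held a library that stood apart. That is, its gap to the nearest other library of its group, as a share of the group's range, passed Dixon's critical value. Chance gives about 1 in 20. Among the KD-labelled APP/PS1 libraries, 0004 stood apart as the lowest for Ttr (0.755) and as the highest for Cd163 (0.736). Library 0021 was the lowest for Rftn1 (0.728) and Cd180 (0.713) and the highest for Ift70b (0.854), and 0023 was the lowest for Ell2 (0.769) and the highest for Igkv3-2 (1). Among the Control APP/PS1 libraries, 0007 was the lowest for Il6 (0.654), 0016 the lowest for Ifi44 (0.863), and 0005 the highest for Hsph1 (0.646) and Igkv3-2 (1). For Igkv3-2 each of these values rests on a single library with counts, at 120 CPM in 0023 and 0.11 CPM in 0005.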

How the results depend on the processing

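No paired analysis was possible because the groups share no replicate numbers. The counts of genes called, 0 in either direction, did not move under another normalization, filter or sample set with edgeR other than leaving out 0004; they were 24 higher and 7 lower with DESeq2 and 0 and 2 with limma voom, and 0 to 1373 higher and 0 to 1696 lower when 1 library was left out. DESeq2 also called 24 genes for the difference between the APP/PS1 and WT contrasts, against 0. The 86 genes higher in all 5 libraries became 57 with at least 10 counts in every sample, 23 with Control library 0010 kept, 16 with a gap of at least 0.2 on the log2 scale, and 102 to 1260 without 1 library; the 68 lower became 13 with 0010 kept, 13 with the gap, and 83 to 1313 without 1 library. Without a library fewer values have to be separated, and the upper ends are those without 0004. The 16 classes with medians of the same sign became 10 with 0010 kept and 10 with the length and GC trend removed.

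Members lower in both became 11 for TNF and NF-kB signalling and 9 for immediate early genes with 0010 kept (8 to 26 for the latter without 1 library), and 7 for inflammatory cytokines at a mean of at least 5 CPM. Members higher in both became 3 for MHC class II with 0010 kept (3 to 9 without 1 library) and 8 for border-associated macrophage markers with the length trend removed. Class medians became -0.012 for Trem2 signalling and 0.32 for border-associated macrophage markers with the length trend removed, and 0.40 for the latter with 0010 kept; without 1 library they ran from -0.44 to -0.18 for Trem2 signalling and from -0.19 to 0.019 for NADPH oxidase subunits.

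Of the 94 named genes, edgeR called 0 with 0010 kept and 45 without 0004, and DESeq2 called 14. Several log2 fold changes turned sign. With 0010 kept this was -1.17 for Igkc. With DESeq2 it was 0.0025 for Fth1 and 0.016 for Ftl1, with its size factors in edgeR 0.0025 for Fth1 and 0.016 for Ftl1, with at least 10 counts 0.00908 for Ftl1, with length and GC offsets 0.058 for Dnaja1 and 0.031 for Ifi44, and with limma voom 0.45 for Ifi44. With 1 library left out, sign changes came from ranges of -0.17 to 5.84 for Igkc (without 0023), -2.82 to 13 for Igkv3-2 (without 0023), -0.38 to 0.092 for Cd163 (Control 0013), -0.13 to 0.019 for Fth1 (0004 and Control 0016), -1.13 to 0.17 for Gem (Control 0017) and -0.29 to 0.069 for Ifi44 (0023 and Control 0011, 0013 and 0017). With a covariate for libraries 18 to 23, which leaves 0004 as the only KD-labelled APP/PS1 library outside them, 31 of the 94 reversed: 0.053 for Bin2, 0.10 for Csf1, -0.16 for Gpx4, 0.49 for Hspa1a, 1.11 for Hspa1b, 0.21 for Lag3, 0.11 for Inpp5d, -0.37 for H2-Aa, -0.16 for Il6, -0.045 for Ccl6, 0.099 for Cx3cr1, 0.75 for Cd163, 0.10 for Tfrc, -0.15 for Sod2, 0.060 for Satb1, -0.061 for Fam241b, 0.49 for Apc, 0.14 for Myh10, 0.11 for Spen, 0.099 for Gon4l, 0.24 for Rel, 0.25 for Dnajb4, 0.027 for Dnaja1, 0.059 for Nr4a3, 1.06 for Gem, 0.40 for Klf6, 0.79 for Atf3, -0.19 for H2-DMa, -0.25 for Cd74, 0.064 for Chd3 and 0.13 for Adamts1. In the fit of Slc11a2KD libraries 1 to 4 of both genotypes, 56 of the 94 reversed: -0.12 for Slc11a2, -4.05 for Ttr, -2.62 for Enpp2, 0.055 for Apoe, 0.30 for Bin2, 0.050 for Ctsb, -0.075 for Trem2, -0.018 for Slc40a1, -0.27 for Gpx4, -0.34 for Igkc, 0.45 for Hspa1a, 0.60 for Hspa1b, 0.24 for Lag3, 0.20 for Inpp5d, 0.097 for Erap1, -1.09 for H2-Aa, -0.53 for Il6, -0.31 for Ccl6, 0.082 for Cx3cr1, 0.67 for Cd163, 0.25 for Tfrc, -0.10 for Sod2, -0.37 for Mt3, -0.27 for A930005H10Rik, -0.14 for Gmfg, -0.024 for Gm26542, -0.28 for B3gnt8, 0.50 for Satb1, 0.049 for Eif3j1, 0.41 for Hsph1, 0.21 for Ric3, 0.044 for H2-T24, -0.36 for Fam241b, 0.64 for Apc, 0.14 for Myh10, 0.54 for Spen, 0.50 for Gon4l, 0.64 for Gvin-ps7, -1.0 for Igkv3-2, -0.015 for Crybb1, -0.043 for Ltc4s, 0.062 for Ptgs2, 0.20 for Rel, 0.41 for Bag3, 0.18 for Dnajb4, 0.19 for Dnaja1, 0.42 for Gem, 0.23 for Klf6, 0.059 for Atf3, -0.21 for Pf4, -0.30 for H2-DMa, -0.70 for Cd74, -0.14 for Blvrb, 0.77 for Chd3, 0.21 for Hdac9 and 0.43 for Adamts1. The cause of these changes was not tested. Genes near 1 CPM, such as Ttr in 0004, rest on few counts.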

Other observations

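Lysosomal and spliceosome genes had medians near 0, and their shares lower in both were about the 21% of all genes. Of 65 lysosomal genes, 13 (20%) were below the Control mean in 0004 and in the other 4 and 4 (6.15%, against 19.1% of all genes) above it in both, with medians of -0.05 and -0.03, and of -0.04 and 0.08 after length correction. Of 72 spliceosome genes, 15 (20.8%) were lower in both and 3 (4.17%) higher in both, with medians of -0.06 and -0.05, and of -0.06 and 0.14 after length correction. At an unadjusted p under 0.05, 21 spliceosome genes were higher and 18 lower, against 10.8% and 9.74% of all genes. Members thus lay on both sides, and edgeR called 0 of them at an adjusted p under 0.05. Of 39 microglia transcription factors, 12 (30.8%) were lower in both and 4 (10.3%) higher in both, but the medians were 0.05 in 0004 and -0.48 in the others, and 0.05 and -0.24 after length correction.

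Of 28 fatty acid oxidation genes, 9 (32.1%) were higher in both and 3 (10.7%) lower in both, and 6 and 4 were after length correction, with medians of 0.01 in 0004 and 0.16 in the others. The 16 monocyte and neutrophil markers summed to 386 CPM in 0004, above the Control range of 308 to 353 CPM, and to 215 to 359 CPM in the others. Of these markers 8 (50%, against 19.1% of all genes) were higher in both, and 4 were after length correction, when the median of the others was -0.28 in place of 0.13. The 12 astrocyte markers summed to 691 CPM in 0004, above the Control range of 160 to 591 CPM, and to 115 to 370 CPM in the others. The 16 endothelial and mural markers summed to 147 CPM in 0004, below the Control range of 176 to 258 CPM, and to 204 to 294 CPM in the others. The part of these cell types in the differences of 0004 was not tested.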
